A study of Mus musculus with 3 samples.

Results

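The Slc25a genes encode mitochondrial solute carriers, and their transcripts were compared between control skeletal muscle and skeletal muscle of mFoxO1KO mice, in which FoxO1 had been deleted. They were taken as all non-control probes whose gene symbol begins with Slc25a and a number, without Slc25a20. The scanner files hold an accession for each probe and no column of gene symbols, so the symbol was read from RefSeq by that accession. This gave 55 probes for 46 genes among 39429 probes. Of these, 43 probes for 35 genes passed the filter on dim spots, among 17478 genes tested in all.

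Both groups were male C57BL/6 mice, sampled at lower-limb skeletal muscle. The knockout is labelled as a skeletal muscle-specific, inducible deletion, and its Cre driver is not given in the sources used here. Control and knockout mice both received AIN93G diet with doxycycline at 0.625 g/kg between 8 and 14 weeks of age, so the drug is shared by the groups. Each of 3 Agilent 2-colour arrays carried RNA of 1 control, labelled with Cy3, beside RNA of 1 knockout, labelled with Cy5, and the labels describe 3 biological replicates of each genotype. No array had the dyes exchanged, so a dye effect of a probe and the genotype cannot be told apart in any ratio given here.

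Carriers of this family sit mostly in the inner mitochondrial membrane, which is otherwise closed to metabolites. They exchange ADP for ATP, bring in phosphate, and pass carboxylates, amino acids, nucleotides, cofactors and iron between matrix and cytosol. In skeletal muscle the ADP/ATP carrier Slc25a4 and the phosphate carrier Slc25a3 supply the substrates of oxidative ATP synthesis. Several other carriers are known mainly from liver, testis, brain or the red cell lineage.

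All 15 markers of skeletal muscle fibres on the fixed list were measured, with a median log2 ratio of knockout over control of 0.07. Their means were above 0 for 8 and below 0 for 7. Myoglobin (Mb) alone among them passed the test, at 0.57 (limma, adjusted p = 0.0448, past the threshold in 10 of 16 processing alternatives). Fibre-type markers varied between arrays 1, 2 and 3, with Myh2 at -1.69, -0.34 and 1.36 and Tnnt1 at -0.94, 0.56 and -0.47. Myh7 had -0.80, -0.05 and -0.56, Myh1 0.22, 0.28 and 0.66, and Myh4 -0.07, 0.13 and 0.28. The part of fibre type in the carrier ratios was not tested. Foxo1 had log2 ratios of -1.50, -2.42 and -2.27 on arrays 1, 2 and 3 (limma, adjusted p = 0.0279). These are from its brightest probe, with a mean of -2.06, while the mean over its kept probes was -1.73 (limma, adjusted p = 0.0408). The positions of its probes relative to the deleted stretch are not given in the sources used here. The share of probes that the scanner software marked as well above background was 52.0% to 55.9% for control RNA and 56.1% to 56.9% for knockout RNA. The sum of intensities of 14 measured adipocyte markers ranged from 68260 to 118000 in the control channels and from 126900 to 256000 in the knockout channels. Arrays 1, 2 and 3 gave these markers median log2 ratios of 2.87, 0.22 and 1.50. The means of 13 were above 0 and did not pass. Car3, a carbonic anhydrase that muscle fibres also express, fell, with -0.74, -0.80 and -0.89 on the arrays (mean -0.81, limma, adjusted p = 0.0188). Lep and Ucp1, defining markers of white and brown fat, were not well above background by the filter used. The other marker lists had medians of 0.28 for 8 macrophage genes, 0.11 for 10 endothelial and 0.24 for 4 erythroid genes. Medians were 0.08 for 10 fibroblast and tendon genes and 0.23 for the 3 neutrophil genes measured of 7 on the array. No member of these lists passed. Of the neutrophil genes, S100a9 and Camp were above background on 1 control array and all 3 knockout arrays. They passed the filter through the knockout channels only, so the neutrophil median cannot be read as a rise. In whole muscle, a change in the number of cells of a type and a change in RNA per cell cannot be told apart.

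Of the 35 measured carrier genes, 4 rose in the knockout, 31 did not pass the test and none fell (limma, adjusted p under 0.05). They were Slc25a34, Slc25a4, Slc25a5 and Slc25a30, with rises of 1.48-fold, 1.35-fold, 1.35-fold and 1.29-fold. These are 11.4% of the carriers, while over all 17478 genes tested 2.75% passed the same threshold, 2.05% higher and 0.698% lower. No test over the family was made, because its genes were chosen with earlier results known. At an unadjusted p under 0.05 there were 9 carrier genes (25.7%), against 26.8% of all genes. The median log2 ratio of the family was 0.02 and that of all genes 0.01. The means ran from -0.23 for Slc25a44 to 0.84 for Slc25a1, with 19 above 0, 15 below and Slc25a12 at 0.00. On all 3 arrays 9 carrier genes had a ratio above 0 and 5 a ratio below 0, against 27.8% and 24.4% of all genes. The median and the shares of 1 sign thus lay near or below those of all genes. The share past the adjusted threshold lay above that of all genes and rests on 4 carriers.

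**Figure D1:**
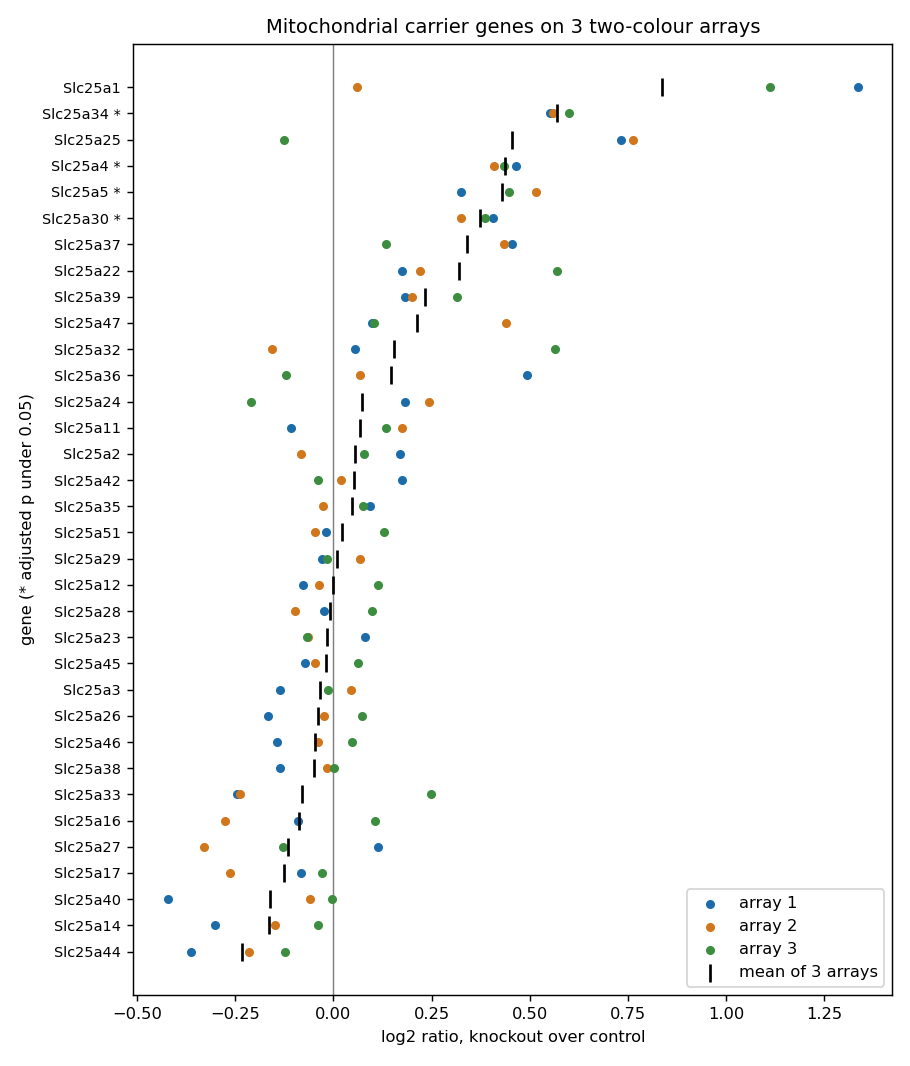
Log2 ratio of knockout over control (horizontal axis) for 34 of the 35 measured Slc25a genes (vertical axis), with 1 point per array and a bar at the mean of 3 arrays. The 4 genes with an asterisk, between 0.37 and 0.57, passed an adjusted p of 0.05 and have points close together, while Slc25a1 and Slc25a25, with means of 0.84 and 0.46, have points far apart.

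Slc25a4 encodes the ADP/ATP carrier that dominates in heart and skeletal muscle. Its probe had 10 spots per array, which were averaged. The normalised log2 intensities were 16.92, 16.89 and 16.84 in the control channels of arrays 1, 2 and 3 and 17.39, 17.30 and 17.27 in the knockout channels. Every knockout value lay above every control value, as was so for 13.9% of all genes tested. The log2 ratio was 0.44 ± 0.03 (SD, n = 3), with a 95% interval of 0.29 to 0.58 (limma, adjusted p = 0.0426). The ratio was 0.87 with median centring of the arrays in place of loess and 0.21 in the deposited log ratios, where it did not pass (adjusted p = 0.156).

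Slc25a5 encodes the ADP/ATP carrier found in most tissues. Its log2 intensities were 10.18, 10.03 and 10.25 in the control channels and 10.51, 10.55 and 10.70 in the knockout channels, again without overlap. The log2 ratio was 0.43 ± 0.10 (SD, n = 3; limma, adjusted p = 0.0492). Slc25a4 and Slc25a5 are close paralogs, and Slc25a5 has a pseudogene. The probe sequences were not used here, so how far each probe also reads the other transcript was not tested. Slc25a31, the ADP/ATP carrier of the germ line, was not well above background in either channel of any array.

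Slc25a34, a carrier without a settled substrate, had the smallest p of the family. Its log2 intensities were 10.75, 10.39 and 10.62 in the control channels and 11.30, 10.94 and 11.22 in the knockout channels. The groups did not overlap, and within arrays the ratios were 0.55, 0.56 and 0.60. The mean of 0.57 ± 0.03 (SD, n = 3) had a 95% interval of 0.43 to 0.71 (limma, adjusted p = 0.0299).

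Slc25a30 encodes a carrier close in sequence to the uncoupling proteins and known from kidney. It was dim, at 6.85, 7.03 and 7.36 in the control channels and 7.26, 7.35 and 7.74 in the knockout channels. The channels overlapped between arrays, since the control value of array 3 exceeded 2 knockout values, but within each array the knockout was higher, by 0.41, 0.33 and 0.39. The mean log2 ratio was 0.37 ± 0.04 (SD, n = 3; limma, adjusted p = 0.0492). It was 0.86 with the processed signals of the scanner software and 0.82 in the deposited log ratios, the latter not past the threshold (adjusted p = 0.0583). With channels fitted separately and the array as a replicate block it did not pass (adjusted p = 0.0823).

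Each of these calls lay close to the threshold. The count of carriers that rose was 1 without replicate 1 (Slc25a34), 0 without replicate 2 and 1 without replicate 3 (Slc25a25). Without replicate 2, only 1 of all genes tested rose and 0 fell. The count of carriers that rose was 0 with the deposited log ratios. It was 6 with median centring in place of loess, where Slc25a1, Slc25a25 and Slc25a37 passed and Slc25a30 did not. With the array as a replicate block it was 4, Slc25a37 in place of Slc25a30. Slc25a34 passed in 12 of 16 alternatives, Slc25a4 in 9, Slc25a30 in 6 and Slc25a5 in 5, while the log2 ratio of each stayed above 0 in all 16. Adipocyte markers had their lowest median, 0.22, on array 2. There the ratios of Slc25a34, Slc25a4, Slc25a5 and Slc25a30 were 0.56, 0.41, 0.52 and 0.33. The part of fat in the ratios of these 4 carriers was not tested.

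**Figure D2:**
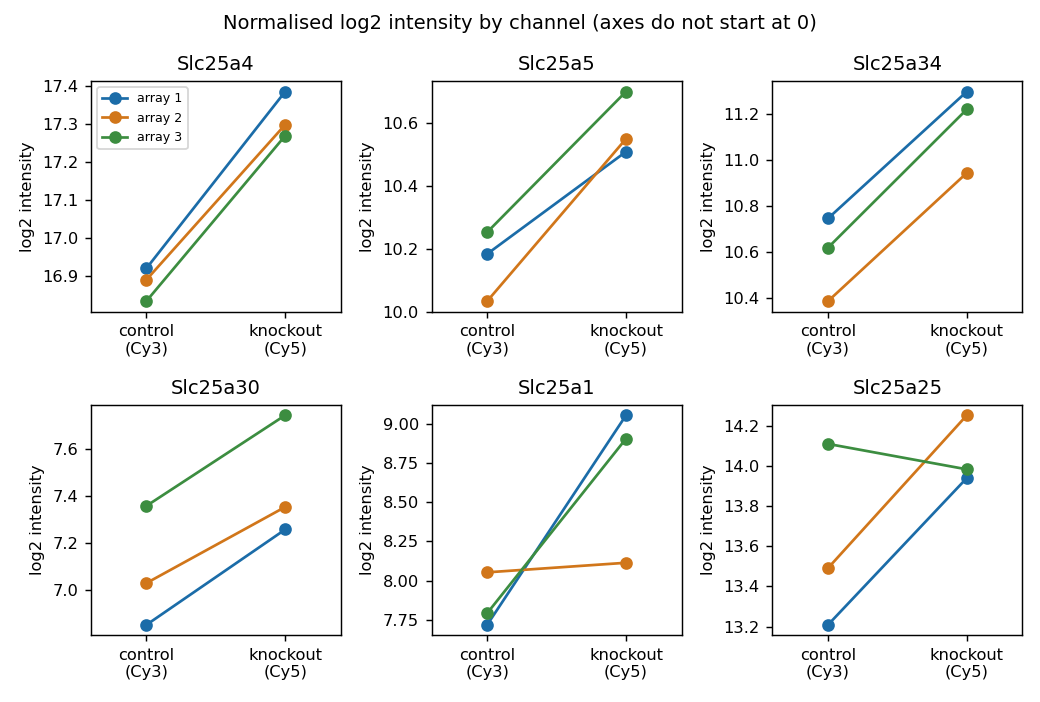
Normalised log2 intensity (vertical axes, which do not start at 0 and differ between panels) in the control and knockout channels of 6 carrier genes, with 1 line per array. The lines of Slc25a4, Slc25a5, Slc25a34 and Slc25a30 rise on all arrays, that of Slc25a1 is nearly level on array 2 (8.05 to 8.11), and that of Slc25a25 falls on array 3 (14.11 to 13.98).

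The 250 bases before the annotated transcription start are shown for the 4 carriers that rose and for Slc25a25, because these are the stretches in which a factor acting at the promoter could bind. Sequences are those of RefSeq on GRCm38.p6, read 5′ to 3′ along the gene, and capitals mark matches to the motifs searched. Slc25a25 has 3 annotated starts, and the one with a match is shown.
Slc25a34, chr4:141623835-141624084, minus strand: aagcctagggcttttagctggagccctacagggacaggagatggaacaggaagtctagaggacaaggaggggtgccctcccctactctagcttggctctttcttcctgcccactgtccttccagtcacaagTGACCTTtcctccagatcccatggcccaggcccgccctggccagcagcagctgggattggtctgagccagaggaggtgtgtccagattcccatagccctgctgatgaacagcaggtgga
Slc25a4, chr8:46211063-46211312, minus strand: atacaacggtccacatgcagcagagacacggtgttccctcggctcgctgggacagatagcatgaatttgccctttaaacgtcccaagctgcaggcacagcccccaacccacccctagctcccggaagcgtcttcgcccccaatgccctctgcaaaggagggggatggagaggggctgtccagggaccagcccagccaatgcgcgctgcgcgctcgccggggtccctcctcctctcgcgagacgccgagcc
Slc25a5, chrX:36795347-36795596, plus strand: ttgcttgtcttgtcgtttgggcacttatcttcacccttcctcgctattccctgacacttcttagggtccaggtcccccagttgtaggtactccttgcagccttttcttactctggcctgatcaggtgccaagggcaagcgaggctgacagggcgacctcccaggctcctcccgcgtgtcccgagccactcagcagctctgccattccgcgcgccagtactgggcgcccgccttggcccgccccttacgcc
Slc25a30, chr14:75787038-75787287, minus strand: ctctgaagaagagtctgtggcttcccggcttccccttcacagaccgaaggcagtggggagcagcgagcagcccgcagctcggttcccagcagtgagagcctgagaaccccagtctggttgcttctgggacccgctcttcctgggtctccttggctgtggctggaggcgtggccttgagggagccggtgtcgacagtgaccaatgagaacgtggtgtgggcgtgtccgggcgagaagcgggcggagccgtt
Slc25a25, chr2:32424067-32424316, minus strand: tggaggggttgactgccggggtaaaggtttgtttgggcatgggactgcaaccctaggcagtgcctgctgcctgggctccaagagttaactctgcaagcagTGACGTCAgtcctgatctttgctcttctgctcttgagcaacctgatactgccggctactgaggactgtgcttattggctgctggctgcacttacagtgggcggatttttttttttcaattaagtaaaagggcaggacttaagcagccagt

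The RefSeq table held 45 promoters for 35 of the 46 carrier genes. These are not the 35 measured genes. They include unmeasured ones, such as Slc25a18 and Slc25a21, and lack measured ones, such as Slc25a37 and Slc25a44, which were not searched. All motifs were searched on both strands. The FoxO motif, GTAAACA, was found in 0 of the 45 carrier promoters and in 3.17% of all 32851 promoters of the same length. The cyclic AMP response element, TGACGTCA, was found in 2 carrier promoters, those of Slc25a25 and Slc25a36, and in 1.55% of all promoters. Its shorter form, TGACG, was in 11 carrier promoters (24.4%) of 10 genes, against 17.8% of all. Promoters of 1 gene can overlap, and 1 site of Slc25a14 was counted in 2 of them. In the Slc25a25 promoter the full element begins 150 bases before the start. The motif of oestrogen-related receptors, TCAAGGTCA, was in 0 carrier promoters, against 0.387% of all. Its shorter form, AAGGTCA, was in 1 (2.22%), that of Slc25a34, on the opposite strand, against 4.08% of all. The letters of the TATA box, TATAAA, were in 2, against 12.4% of all. Both matches lay on the opposite strand, at -75 from the start for Slc25a18 and -10 for Slc25a21. These shorter forms lie within the longer motifs, so every match of a longer motif is also a match of its shorter form. Median GC content was 57.6% in carrier promoters and 52.4% in all. A match or its absence describes these letters in this window and not a bound site.

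Among the 9 carriers of adenine nucleotides, phosphate and related cargo, 7 were measured, and Slc25a4 and Slc25a5 were the 2 that rose. The phosphate carrier Slc25a3, which delivers the phosphate that ATP synthase uses, had log2 intensities of 14.44, 14.21 and 14.18 in the control channels and 14.30, 14.25 and 14.17 in the knockout channels. These overlapped, and the ratio was -0.04 ± 0.09 (SD, n = 3), with a 95% interval of -0.20 to 0.13 (limma, adjusted p = 0.754). The sign turned in 3 of 16 alternatives, at 0.273 with median centring in place of loess, 0.023 with processed signals and 0.015 without replicate 1. The first of these moved the median of all genes to 0.16. The second Slc25a3 probe was dimmer and had -0.35, -0.10 and -0.17 (adjusted p = 0.155 in a limma fit of single probes).

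Slc25a25, one of the calcium-regulated carriers of ATP-Mg and phosphate, had log2 ratios of 0.73, 0.76 and -0.13. Its control intensity on array 3 was 14.11, against 13.21 and 13.49 on arrays 1 and 2, while the knockout intensities lay between 13.94 and 14.25. The mean ratio was 0.46 ± 0.51 (SD, n = 3), with an interval of -0.05 to 0.96 (limma, adjusted p = 0.213), and without replicate 3 it was 0.75 (adjusted p = 0.0451). The second probe gave the same pattern, at 0.77, 0.82 and -0.07. Of its relatives, Slc25a24 had 0.07 ± 0.25 and Slc25a23 -0.02 ± 0.08. Slc25a23 was well above background in the control channels only, so its knockout level is a bound, and its ratio was -0.83 in the deposited log ratios (adjusted p = 0.151). Slc25a41 was not measured. Slc25a17, a peroxisomal carrier of cofactors, had -0.12 ± 0.12 (SD, n = 3), and 0.08 with median centring in place of loess.

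Of the 4 carboxylate carriers 2 were measured, and none passed. Slc25a1 exports citrate, from which the cytosol makes acetyl-CoA for fatty acid synthesis. Its log2 intensities were 7.72, 8.05 and 7.79 in the control channels and 9.05, 8.11 and 8.90 in the knockout channels. All 3 knockout values were above the control values, but on array 2 by little, with ratios of 1.34, 0.06 and 1.11 on arrays 1, 2 and 3. The mean of 0.84 ± 0.68 (SD, n = 3) was the highest of the family, with an interval of 0.17 to 1.50 (limma, adjusted p = 0.132). With median centring in place of loess it was 1.00 and passed (adjusted p = 0.0142). The adipocyte markers were likewise highest on array 1 and lowest on array 2, with 13 of 14 mean ratios above 0. The part of fat in the Slc25a1 ratio was not tested. Slc25a11, which exchanges oxoglutarate for malate, had 0.07 ± 0.15, and Slc25a10 and Slc25a21 were not measured.

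**Figure D3:**
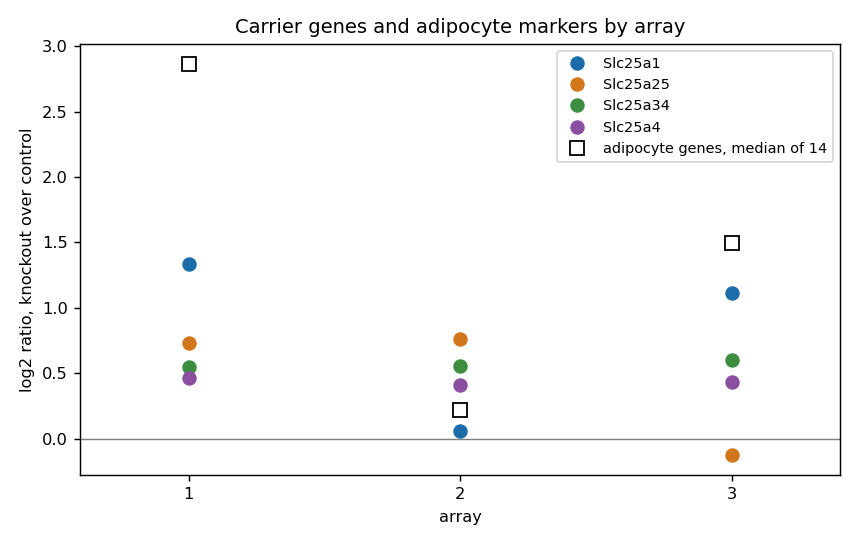
Log2 ratio of knockout over control (vertical axis) on each array (horizontal axis) for 4 carrier genes, with the median of 14 adipocyte markers as open squares. Slc25a1 is lowest on array 2 (0.06), as the adipocyte median is (0.22). Slc25a4 is also lowest there (0.41), and Slc25a34 and Slc25a4 lie between 0.41 and 0.60 on all arrays.

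Amino acid carriers had 6 of 9 genes measured and none past the threshold, with a median log2 ratio of 0.00. Slc25a22, a glutamate carrier, had 0.17, 0.22 and 0.57, a mean of 0.32 ± 0.22 (SD, n = 3; limma, adjusted p = 0.126). Slc25a44, which carries branched-chain amino acids, had the lowest mean of the family. Its log2 intensities were 8.36, 8.24 and 8.31 in the control channels and 8.00, 8.02 and 8.19 in the knockout channels, without overlap. The ratio was -0.23 ± 0.12 (SD, n = 3), with an interval of -0.41 to -0.05 (limma, adjusted p = 0.125). Its second, dimmer probe had 0.04 ± 0.07. Slc25a12, the aspartate/glutamate carrier of muscle, had a mean of 0.00 ± 0.10, and its liver counterpart Slc25a13 was not measured. The glycine-linked carrier Slc25a38 had -0.05, the basic amino acid carrier Slc25a29 0.01 and the ornithine carrier Slc25a2 0.06.

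Carriers of nucleotides and cofactors had 8 genes measured, none past the threshold and a median of -0.01. The highest was the folate carrier Slc25a32, at 0.16 ± 0.37. The pyrimidine nucleotide carriers Slc25a33 and Slc25a36 had -0.08 ± 0.28 and 0.15 ± 0.31. Slc25a51, the NAD carrier, had 0.02 ± 0.09, the coenzyme A carrier Slc25a42 0.05 ± 0.11, and Slc25a16 -0.09 ± 0.19.

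All 4 carriers of iron and glutathione were measured, and none passed. Slc25a37, the iron importer mitoferrin best known from red cell precursors, had ratios of 0.45, 0.43 and 0.13, a mean of 0.34 ± 0.18 (SD, n = 3; limma, adjusted p = 0.0972). Its control intensities (10.60, 10.65 and 10.85) lay below all knockout intensities (11.05, 11.09 and 10.98). It passed in 2 of 16 alternatives, median centring in place of loess and the replicate block (adjusted p = 0.0373 in the latter). The 4 measured erythroid markers had medians of 0.81, 0.02 and -0.13 on the arrays. Their medians and the Slc25a37 ratios were both highest on array 1 and lowest on array 3. The part of red cells in the Slc25a37 ratio was not tested. Slc25a28, the other mitoferrin, had -0.01 ± 0.10. The glutathione carrier Slc25a39 had 0.18, 0.20 and 0.32, a mean of 0.23 ± 0.07 (SD, n = 3; limma, adjusted p = 0.101). Its paralog Slc25a40 had -0.42, -0.06 and -0.004, a mean of -0.16 ± 0.23 (adjusted p = 0.348).

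Of the 3 carriers that resemble uncoupling proteins, Slc25a30 rose and the others did not pass. Slc25a14 had -0.30, -0.15 and -0.04, a mean of -0.16 ± 0.13 (SD, n = 3; limma, adjusted p = 0.226), and Slc25a27 had 0.11, -0.33 and -0.13, a mean of -0.12 ± 0.22 (adjusted p = 0.487). Both means were above 0 with median centring in place of loess, at 0.02 and 0.08. Among carriers of other or unassigned substrate, 5 of 9 were measured and Slc25a34 rose. Slc25a47, known from liver, had 0.10, 0.44 and 0.10 (adjusted p = 0.211). Slc25a35, Slc25a45 and Slc25a46, the last an outer membrane protein of mitochondrial shape, had means between -0.05 and 0.05.

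In channel intensities, 5 of the 35 genes had all knockout values above all control values and 1 had all below, against 13.9% and 11.8% of all genes. The share above was thus near that of all genes, and the share below was lower. The 5 were Slc25a1, Slc25a4, Slc25a5, Slc25a34 and Slc25a37, and the 1 was Slc25a44.

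Of the 8 genes with 2 measured probes, 5 had probes with mean ratios of opposite sign. They were Slc25a26, Slc25a33, Slc25a37, Slc25a44 and Slc25a46, and no probe of these passed in the fit of single probes. The S-adenosylmethionine carrier Slc25a26 had -0.04 ± 0.12 from the brighter probe and 0.28 ± 0.22 from the other. Slc25a33 had -0.08 ± 0.28 and 0.28 ± 0.30, and Slc25a46 had -0.05 ± 0.10 and 0.10 ± 0.02. Slc25a37 had 0.34 ± 0.18 from the brighter probe, and the other probe had -0.05 ± 0.13. Slc25a34, Slc25a4, Slc25a5 and Slc25a30 have 1 probe each, so no second probe checks them.

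**Figure D4:**
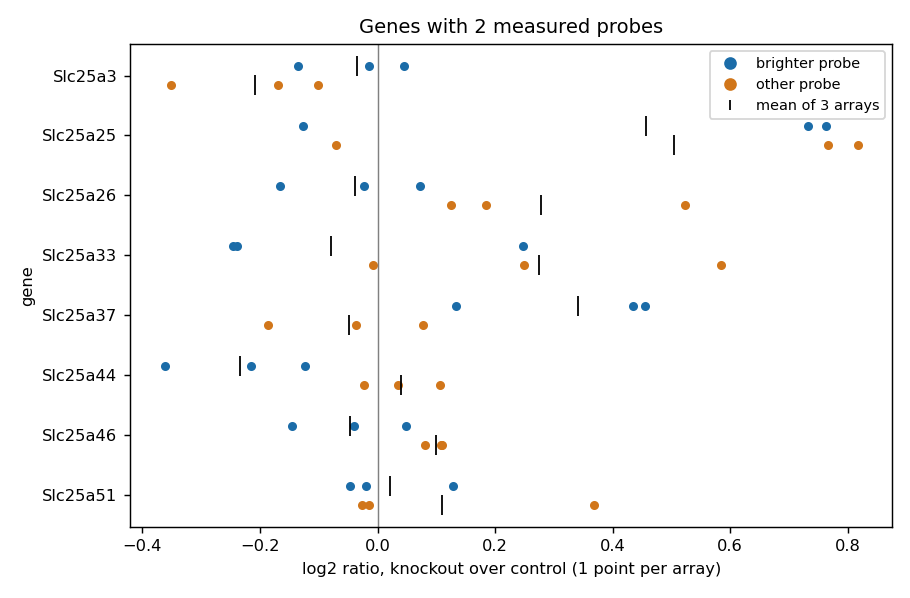
Log2 ratio of knockout over control (horizontal axis, 1 point per array, bar at the mean) for the 2 probes of each of 8 carrier genes. The probes of Slc25a25 lie together on each array, whereas those of Slc25a26, Slc25a33, Slc25a37, Slc25a44 and Slc25a46 have means on opposite sides of 0.

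The 11 genes not measured were Slc25a10, Slc25a13, Slc25a15, Slc25a18, Slc25a21, Slc25a31, Slc25a41, Slc25a43, Slc25a48, Slc25a53 and Slc25a54. Of these, Slc25a13 and Slc25a15 were well above background on 1 or 2 arrays of a channel and the other 9 on none. For them only a bound on the level is given by these arrays.

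No gene of the carrier family that goes by another symbol passed. Ucp3, the uncoupling protein of muscle, had 0.65, 0.53 and 0.34, a mean of 0.51 ± 0.15 (SD, n = 3; limma, adjusted p = 0.0504), and passed in 6 of 16 alternatives. Mtch1, a carrier homolog of the outer membrane, had 0.37 ± 0.18 (adjusted p = 0.0878), and Ucp2 0.20 ± 0.11 (adjusted p = 0.151). Among 28 measured genes of other mitochondrial transport, covering the pyruvate carrier, porins, calcium uniporter, sideroflexins and carnitine palmitoyltransferases, none passed and the median was 0.07. The smallest p-values were those of Tspo, an outer membrane protein that binds cholesterol (0.66 ± 0.27, adjusted p = 0.0573), the mitochondrial creatine kinase Ckmt2 (0.46 ± 0.18, adjusted p = 0.0630) and Cpt2 (0.28 ± 0.05, adjusted p = 0.0736). Sfxn1, a serine transporter chosen after its values were seen, had 1.70, 0.21 and 1.46, highest on array 1 and lowest on array 2 as the adipocyte markers were, whose part in it was not tested. Of 26 genes of mitochondrial protein import, none rose and Dnajc19, a component of the inner membrane import motor, fell by 0.54 ± 0.17 (limma, adjusted p = 0.0499), with a list median of 0.01. The call of Dnajc19 held in 5 of 16 alternatives, and with the mean over its probes the ratio was 0.017 (adjusted p = 0.885). Timm50, Timm22 and Timm23 had the next smallest p-values, at 0.23, 0.19 and -0.16.

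**Figure D5:**
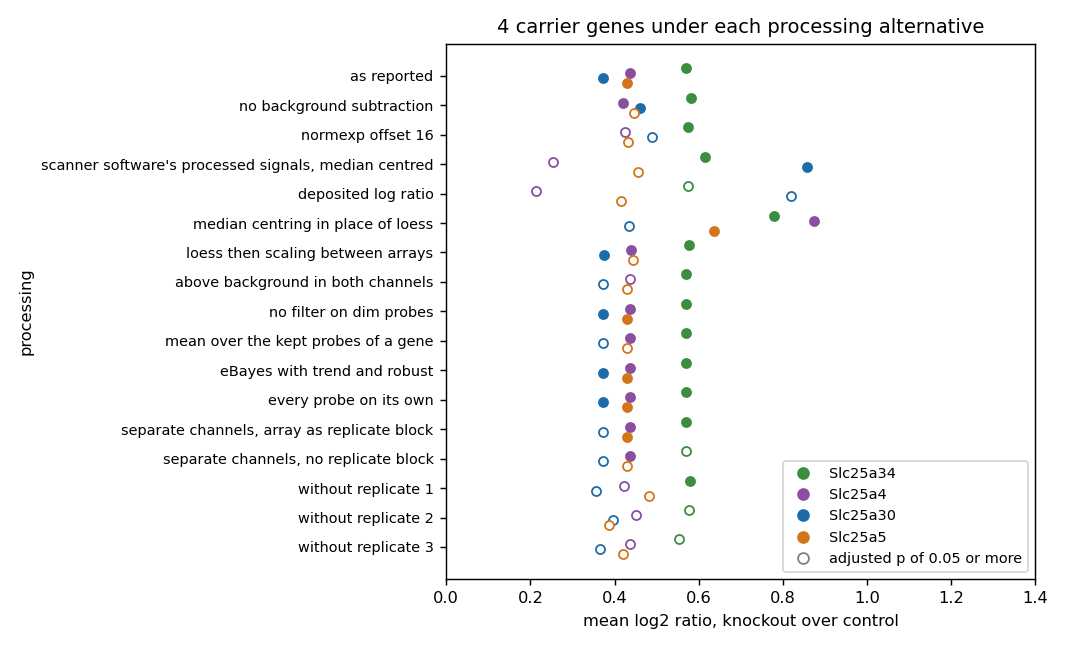
Mean log2 ratio of knockout over control (horizontal axis) of the 4 carriers that rose, under the processing reported and each of 16 alternatives (vertical axis), with filled points for an adjusted p under 0.05. All points lie above 0, between 0.21 and 0.87, and Slc25a34 has the most filled points (12 of 16 alternatives).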

How the data were processed

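Total RNA (0.2 µg, per the labels) was labelled in Cy3 and Cy5. The deposited scanner files hold median spot and background intensity values as scanned, and processed intensity values already corrected for background, trend over the slide and dye by Agilent Feature Extraction. Its version is 11.5.1.1 per the file headers and 9.3.2.1 per the submitters' processing notes. The deposited log ratio, on a log10 scale, sets processed Cy5 over processed Cy3 and was multiplied by the log2 of 10 where used.

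With limma 3.58.1 (R 4.3.3), median signals were corrected by normexp (offset 50) and arrays normalised by loess, control spots having weight 0. Outlier spots, 281 to 319 per array, were left out. A probe was kept if well above background in one channel on all 3 arrays, and the brightest probe stood for a gene. Symbols came from RefSeq (GRCm38.p6) for 27508 probes. Ratios were tested with an intercept-only limma fit, two-sided, with Benjamini-Hochberg adjustment over all genes. Channel levels come from loess and Aquantile scaling. The fit was tested on simulated data. Values were given in full for carriers past the threshold, the next 6 in each direction by p, Slc25a3 to Slc25a5 and genes whose probes disagree, except that 1 measured carrier is counted but not reported here. The members and lists were chosen with earlier results of these data known. The arrays' number limits the precision. The p-values and intervals rest on the spread between these samples after limma moderates it over all genes, so they do not follow the printed SD alone.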

Additional observations from a re-analysis of the deposited data

How the results depend on the processing

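The 16 alternatives were run for the counts, the family's median, Foxo1 and 19 carriers chosen by rule. After the data had been seen they were also run for 15 further carriers and for Car3, Dnajc19, Mb and Ucp3, but not for the marker lists or second probes. Slc25a23 could not be tested with the filter on both channels. No carrier fell in any of them. The count of carriers that rose, 4 as reported, was 1 with a normexp offset of 16, 2 with the scanner software's processed signals, 6 with median centring in place of loess, 3 without background subtraction or with scaling between arrays, 0 with the deposited log ratios, 1 with a filter on both channels, 2 with the mean over a gene's probes, 1 with separate channels and no replicate block, and 0 to 1 when a replicate was left out. With the array as a random replicate block in separate channels it was 4, of which Slc25a37 was not among those reported and Slc25a30 was lost. The family's median, 0.02, was 0.23 with median centring in place of loess, a setting that moved the median of all genes to 0.16.

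Over all genes, 359 rose and 122 fell. The counts higher and lower were 200 and 56 with offset 16, 165 and 36 with deposited log ratios, 1171 and 51 with median centring in place of loess, 598 and 227 with scaling between arrays, 37 and 18 with the filter on both channels, 553 and 193 without the filter, 1040 and 609 with the replicate block and 167 and 52 without it. There were 552 higher with processed signals, 78 lower with mean probes and 185 lower with the trended robust variance. Leaving out a replicate gave 1 to 297 higher and 0 to 107 lower. Foxo1 ranged from -2.35 to -1.73 and missed the threshold only without replicate 2 (-1.88, limma, adjusted p = 0.107), within 6.6e-05 to 0.107 over its alternatives.

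Signs turned for 7 of the 19 carriers and 13 of the 15, none of which passed. The 13 include Slc25a12, whose reported ratio rounds to 0.00 and so had no sign to turn. With median centring in place of loess, Slc25a3 was 0.273, Slc25a14 0.021, Slc25a17 0.077, Slc25a26 0.168, Slc25a27 0.081, Slc25a33 0.135 and Slc25a46 0.170. With processed signals Slc25a3 was 0.023 and Slc25a26 0.039. With mean probes Slc25a26 was 0.119, Slc25a33 0.098 and Slc25a46 0.027. With a replicate left out, Slc25a3 ranged from -0.075 to 0.015, Slc25a26 from -0.095 to 0.025, Slc25a33 from -0.242 to 0.004 and Slc25a46 from -0.093 to 0.004. Slc25a12, at 0.00 as reported, was -0.003 without background subtraction, -0.010 with offset 16, 0.080 with processed signals, 0.039 with deposited log ratios, 0.312 with median centring and 0.007 with scaling. Slc25a28 was 0.066 with processed signals, 0.026 with deposited log ratios and 0.212 with median centring, which also turned Slc25a16 to 0.113 and Slc25a38 to 0.159. Slc25a29 was -0.004 with offset 16, and Slc25a45 was 0.019 without background subtraction and 0.022 with processed signals. With a replicate left out, the ranges were -0.057 to 0.038 for Slc25a12, -0.183 to 0.007 for Slc25a16, -0.002 to 0.123 for Slc25a2, -0.067 to 0.008 for Slc25a23, -0.014 to 0.213 for Slc25a24, -0.061 to 0.036 for Slc25a28, -0.022 to 0.025 for Slc25a29, -0.051 to 0.310 for Slc25a32, -0.026 to 0.280 for Slc25a36, -0.010 to 0.097 for Slc25a42, -0.061 to 0.007 for Slc25a45 and -0.033 to 0.054 for Slc25a51. Dnajc19 was 0.017 with mean probes. Car3 kept its call in 13 of 16 alternatives. Leaving out a replicate gives each gene fewer values, and the filter on both channels tests fewer genes. The cause of the moved counts was not tested for any setting. Signal limits dim probes: the median Cy3 signal was 90.5 to 97, its background 35.5 to 38.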
